A study of Mus musculus with 4 samples.

Results

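The genes described here encode 10 subunits of the BAF (mammalian SWI/SNF) chromatin remodelling complex: the ATPases Smarca4 and Smarca2, the core subunits Smarcb1, Smarcc1, Smarcc2, Smarcd1, Smarcd2, Smarcd3 and Smarce1, and the DNA-binding subunit Arid1a. They were chosen by gene symbol and not by a cut on their measured values, but with earlier results of these data known. Every probe set annotated to one of them was taken. All 10 had a probe set, of 18193 genes with 1 symbol on the array, and together they had 23 probe sets.

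The series profiles RNA of 4 mouse cultures on Affymetrix arrays, with 1 array for each, to look for molecules involved when GS cells become mGS cells. The embryonic stem (ES) cells were of the line R1. The multipotent germline stem (mGS) cells are ES-like cells that arise in cultures of germline stem cells. The Trp53 KO GS cells are germline stem cells that lack Trp53, and their title adds the name ICR. The GS cells, cultured spermatogonial stem cells, have no mutation named in the labels. StemPro-34 was the base of the medium for the knockout and GS cells and the ES and mGS cells had a standard ES cell medium, so cell type and medium cannot be told apart. The strain of the GS and mGS cells, the age of the donors and whether each line is 1 clone are not given in the sources used here. Loss of Trp53 and any other difference between the knockout and GS lines, such as strain, therefore cannot be told apart.

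Signals are quantile-normalized intensities. The median of an array, a signal of 82.7, was used as a floor: a signal under it was raised to it, which turns a fold into a lower bound ("at least"), and no difference was taken between 2 arrays that were both under it. With 1 array per culture there is no replicate spread and no test, so a difference of 2-fold, or 1 on the log2 scale, was only counted. As a rough measure of error, the differences from separate probe sets of a gene had an SD of 0.45 to 0.70 on the log2 scale, depending on the arrays compared, over 4424 to 4710 genes. That SD holds no variation between cultures, and precision is limited by the number of arrays. In RNA of whole cultures, fewer cells of a type and less RNA per cell cannot be told apart.

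Of the markers of the labelled cell types, all but Etv5 ran as the labels say. All 8 pluripotent cell markers were above the floor on the ES and mGS arrays, with summed signals of 65719 and 79021, against 6221 on the knockout and 5359 on the GS array. On each of the last 2 arrays 5 of the 8 were above the floor as well. Of the 9 germ cell markers, 6 were above the floor on the ES array, 7 on the mGS array and all 9 on the knockout and GS arrays. The 9 summed to 6095 for ES and 9846 for mGS cells, against 68614 on the knockout and 68821 on the GS array. One of them, Etv5, ran the other way, with 4617 on the ES, 6360 on the mGS, 507 on the knockout and 1955 on the GS array, and it made up most of the ES and mGS sums. The 10 fibroblast markers summed to 27361 on the ES array and 1605 on the mGS array, 1997 on the knockout array and 1051 on the GS array. The knockout label was not checked at its gene, since Trp53 was not analysed here. Added control RNAs split the arrays otherwise: the poly-A control dap read 2545 on the ES and 3055 on the knockout array, against 255 on the mGS and 271 on the GS array. The hybridisation control bioC read 602 on the knockout array and 3066 to 3499 on the others.

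BAF complexes use the energy of ATP to move and evict nucleosomes. Each complex holds 1 of the ATPases Smarca4 (BRG1) and Smarca2 (BRM), a pair of scaffold subunits drawn from Smarcc1 (BAF155) and Smarcc2 (BAF170), and 1 of the subunits Smarcd1, Smarcd2 and Smarcd3 (BAF60A, BAF60B and BAF60C), so that paralogues replace each other in different cell types. The form described in mouse ES cells, esBAF, is built on Smarca4, Smarcc1, Smarcd1 and Arid1a and holds little Smarca2 or Smarcc2, while Smarcd3 is best known from heart and muscle.

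The sequences upstream of 4 members are shown because these genes form the paralogue pairs with the widest shifts below, Smarcd1 with Smarcd3 and Smarca4 with Smarca2. They are the 250 bases before the transcription start given by RefSeq on GRCm38.p6, 5′ to 3′ on the gene's own strand. Capitals mark GC boxes, GGGCGG or CCGCCC on the other strand.
Smarcd3, chr5:24602003-24602252 (- strand): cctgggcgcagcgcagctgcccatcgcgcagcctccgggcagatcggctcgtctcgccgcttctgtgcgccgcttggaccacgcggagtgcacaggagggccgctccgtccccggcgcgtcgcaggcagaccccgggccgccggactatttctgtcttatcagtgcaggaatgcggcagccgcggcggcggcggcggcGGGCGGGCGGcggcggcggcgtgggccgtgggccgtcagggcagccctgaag
Smarcd1, chr15:99702037-99702286 (+ strand): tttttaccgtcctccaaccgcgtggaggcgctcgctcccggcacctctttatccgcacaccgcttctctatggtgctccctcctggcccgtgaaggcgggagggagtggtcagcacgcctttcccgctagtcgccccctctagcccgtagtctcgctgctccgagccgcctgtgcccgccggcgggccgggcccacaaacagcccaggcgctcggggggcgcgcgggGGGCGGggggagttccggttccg
Smarca2, chr19:26604910-26605159 (+ strand): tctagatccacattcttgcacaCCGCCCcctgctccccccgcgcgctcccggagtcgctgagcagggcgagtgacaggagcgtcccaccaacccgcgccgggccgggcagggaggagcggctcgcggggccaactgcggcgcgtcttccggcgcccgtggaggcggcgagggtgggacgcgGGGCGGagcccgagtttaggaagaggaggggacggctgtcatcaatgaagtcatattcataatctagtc
Smarca4, chr9:21615919-21616168 (+ strand): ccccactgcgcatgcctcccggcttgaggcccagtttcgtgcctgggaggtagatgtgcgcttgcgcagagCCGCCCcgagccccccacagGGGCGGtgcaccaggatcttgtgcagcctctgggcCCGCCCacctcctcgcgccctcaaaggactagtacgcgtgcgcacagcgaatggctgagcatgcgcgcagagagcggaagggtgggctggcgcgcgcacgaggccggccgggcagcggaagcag
All 4 stretches are rich in CpG dinucleotides, with 38 in Smarcd3, 29 in Smarcd1, 28 in Smarca2 and 25 in Smarca4, against a median of 6 over 32851 RefSeq promoter windows of this length. GC boxes were found once in Smarcd1, 2 times each in Smarcd3 and Smarca2 and 3 times in Smarca4, and 32.7% of all windows hold at least 1. The 2 matches in Smarcd3 overlap. None of the 4 held the letters CCAAT, which 33.8% of all windows hold on either strand. None held TATAAA on either strand, found in 12.4% of windows, or the E box CACGTG, found in 6.02%. A match describes the letters of the window and is not a binding site.

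Of the 23 probe sets, 16 were above the floor on all 4 arrays, 3 on some of them (both Smarca2 probe sets and 1 of Smarcd2) and 4 on none (1 each of Smarcb1, Smarcc1, Smarcd1 and Smarce1). Each member kept at least 1 probe set above the floor on some array, and the one with the highest mean signal, called the main probe set here, stood for the gene. Over the 4 arrays 7 of the 10 members spanned 2-fold or more, against 57.1% of 12897 genes, and their median span was 2.10-fold against 2.19-fold for all those genes. The members as a set thus moved about as much as other genes. Ordered by signal, the members gave 30 steps between neighbouring arrays, of which 23 were smaller than the SD between probe sets, so most orders of the arrays are not resolved.

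**Figure D1:**
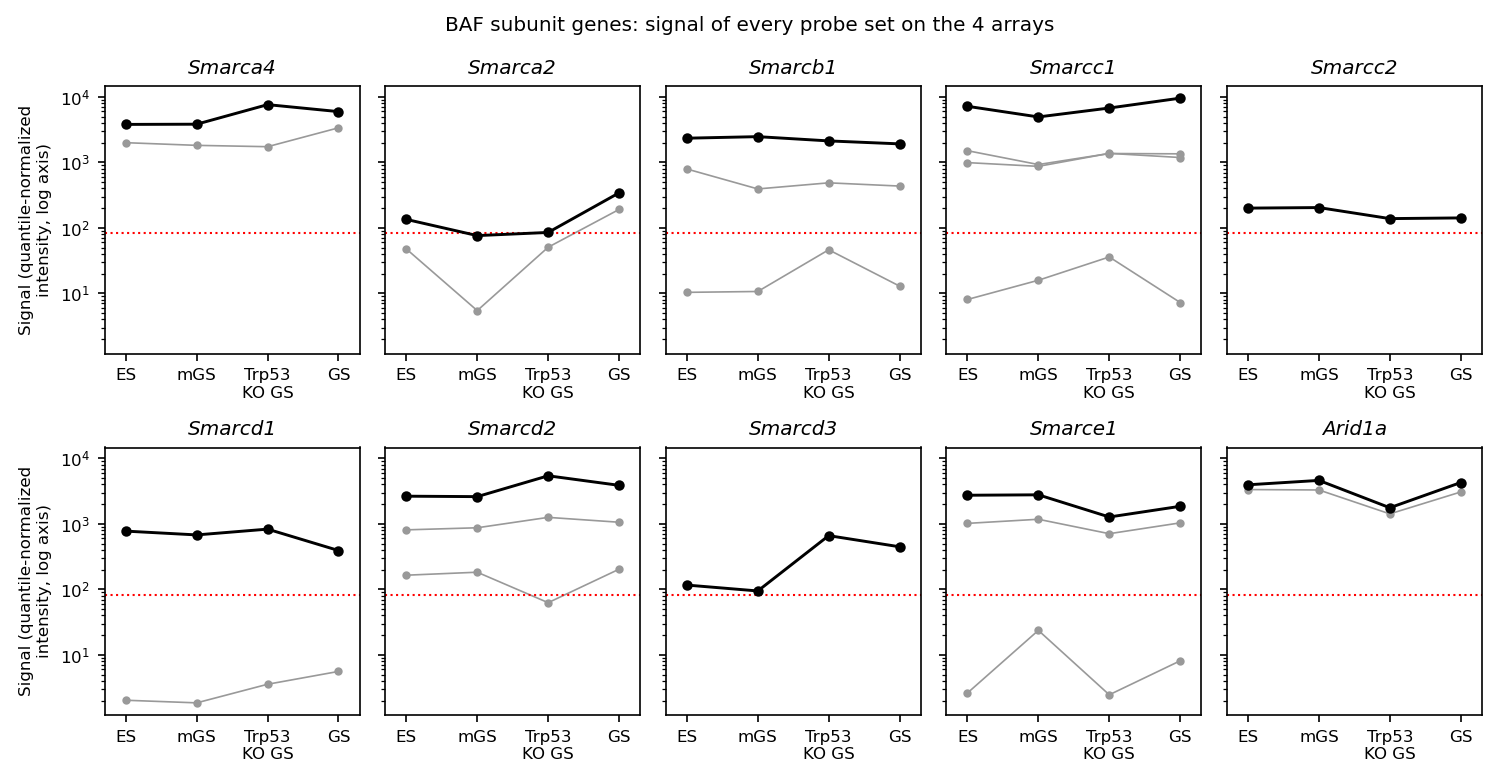
Signal of every probe set of the 10 genes (quantile-normalized intensity, log axis) on the ES, mGS, Trp53 KO GS and GS arrays; black lines join the main probe set of a gene, grey lines its other probe sets, and the dotted red line is the floor at 82.7. Smarcd3 is high on the knockout and GS arrays, Smarca2 on the GS array, and Arid1a is low on the knockout array in both probe sets.

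Of the ATPase genes, Smarca4 had a signal of 3801 on the ES array, 3828 on the mGS array, 7619 on the knockout array and 5959.7 on the GS array. The ES and mGS arrays lay together under the other 2. On its second probe set the signals were 1999, 1820 and 1736 on the ES, mGS and knockout arrays and 3371 on the GS array, so that the knockout array lay with the low ones. The log2 difference of mGS against GS was -0.64 on the main probe set and -0.89 on the second, that of ES against GS -0.65 and -0.75, and that of the knockout against GS 0.35 and -0.96. A lower signal on the ES and mGS arrays than on the GS array was thus shared by both probe sets and under 2-fold on each, and the knockout had no settled direction.

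Smarca2 had a signal of 135 on the ES array, 76.2 on the mGS array, 85.1 on the knockout array and 342 on the GS array. The second probe set read 47.6, 5.45 and 50.6 on the ES, mGS and knockout arrays, all under the floor, and 191 on the GS array. The GS array was the high one on both. Against the GS array Smarca2 was 2.54-fold lower for ES, at least 4.14-fold lower for mGS and 4.02-fold lower for the knockout, and on the second probe set at least 2.31-fold lower for each. These 3 comparisons share the GS array, so they are not separate evidence. With the knockout array as the reference, the Smarca2 difference was 0.66 on the log2 scale for ES, within the SD of 0.70 between probe sets, and -0.04 for mGS, whose signal was raised to the floor. The ES and mGS arrays therefore did not stand together against both arrays of germline cells at this gene.

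Among the scaffold subunits, Smarcc1 had a signal of 7184 on the ES array, 4942 on the mGS array, 6763 on the knockout array and 9567 on the GS array. It was lowest on the mGS array on each of its 3 probe sets above the floor. For mGS against GS the log2 differences on these probe sets lay between -0.95 and -0.45, and for ES against mGS between 0.19 and 0.70, all under 2-fold. For ES and the knockout against GS the 3 probe sets differed in sign.

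Smarcc2, measured by 1 probe set, was dim on every array, with 200.2 on the ES array, 204 on the mGS array, 138 on the knockout array and 142 on the GS array. The ES and mGS arrays lay 1.41-fold or more above the other 2, a step of 0.50 on the log2 scale that is smaller than the SD of 0.61 between probe sets. The knockout and GS arrays differed by -0.04.

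Smarcd1 had a signal of 775 on the ES array, 678 on the mGS array, 831 on the knockout array and 392 on the GS array. The GS array was the low one. The log2 differences against GS were 0.98 for ES, 0.79 for mGS and 1.08 for the knockout, of which the last passed 2-fold, at 2.12-fold. With arrays centred on their medians it was 0.95 and no longer passed. Its other probe set was under the floor on all arrays.

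Smarcd2 read 2648 on the ES array, 2607 on the mGS array, 5426 on the knockout array and 3879 on the GS array. The main probe set and a second one, with 810 and 872 on the ES and mGS arrays and 1257 and 1060 on the knockout and GS arrays, put both arrays of germline cells above the ES and mGS arrays. The log2 difference of mGS against GS was -0.57 on the main and -0.28 on the second probe set, and that of ES against GS -0.55 and -0.39. A dimmer probe set was under the floor on the knockout array and 203 on the GS array, opposite to the other 2, whose log2 differences for the knockout against GS were 0.48 and 0.25.

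Smarcd3 had the widest range of the members: 116 on the ES array, 94.5 on the mGS array, 661 on the knockout array and 447 on the GS array. The arrays fell into 2 pairs that did not overlap, with the ES and mGS arrays just above the floor. Smarcd3 was 3.84-fold lower on the ES array and 4.73-fold lower on the mGS array than on the GS array, and 5.69-fold and 6.995-fold lower than on the knockout array. The step between the pairs, 1.94 on the log2 scale, compares with an SD of 0.61 between probe sets. It was the only member with a gap of 2-fold or more between both arrays in ES medium and both in GS medium, 1 of 10, where 16% of all genes had such a gap, 7.65% higher and 8.38% lower in ES medium. The gene has 1 probe set, so no second one could be compared.

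Of the subunits with no paralogue among the members, Smarcb1, a core subunit, was the steadiest, with 2341 on the ES array, 2471 on the mGS array, 2127 on the knockout array and 1917 on the GS array, a span of 1.29-fold. A probe set prone to cross-hybridisation read 792 on the ES array against 393 on the mGS array, where the main probe set differed by -0.08 on the log2 scale.

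Smarce1, the HMG-box subunit BAF57, read 2738 on the ES array, 2778 on the mGS array, 1274 on the knockout array and 1855 on the GS array. The knockout array was the low one on this probe set and on the second, with log2 differences against GS of -0.54 and -0.55. For mGS against GS they were 0.58 and 0.18, and for ES against GS 0.56 and -0.03, so that no direction was settled for ES.

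Arid1a, which marks the canonical BAF complex, read 3953 on the ES array, 4613 on the mGS array, 1764 on the knockout array and 4279 on the GS array. Its second probe set read 3342, 3296 and 1422 on the ES, mGS and knockout arrays and 3069.6 on the GS array. The knockout array was the low one on both, 2.43-fold and 2.16-fold lower than the GS array. The ES, mGS and GS arrays lay close together, with log2 differences against GS from -0.11 to 0.12. The low hybridisation controls of the knockout array move with this and every other difference of the knockout. The poly-A control dap, 3055 on the knockout and 271 on the GS array, moves with those against GS. The part of these controls was not tested.

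Counted by comparison, 2 of the 10 members, Smarca2 and Smarcd3, were 2-fold or more lower for mGS than for GS and none was 2-fold higher. Of 11981 genes 31.8% were 2-fold apart, 15.3% being higher and 16.5% lower, so a count of 2 in 10 lay near the background. Over the members' probe sets 3 of 19 compared were 2-fold apart, against 30.3% of all probe sets. The members' median log2 difference was -0.23, against -0.04 for all genes. For ES against GS the same 2 members were 2-fold lower and none 2-fold higher, where 34.6% of genes were 2-fold apart, 17.4% being higher and 17.2% lower, with medians of -0.26 for the members and -0.03 for all genes.

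For ES against mGS no member was 2-fold apart on its main probe set, where 12% of 11816 genes were, 6.9% being higher and 5.13% lower. Of 18 member probe sets 1 was, that of Smarcb1 prone to cross-hybridisation, against 12.5% of all probe sets. The members' median absolute log2 difference was 0.14, against 0.35 for all genes. The largest were Smarca2, at least 1.63-fold higher for ES, and Smarcc1, 1.45-fold higher. The fibroblast markers were higher on the ES array as well, with 9 of 10 above the floor there, all but Lum, and 6 on the mGS array. Their part in the Smarca2 and Smarcc1 values was not tested. The poly-A control dap, 2545 on the ES and 255 on the mGS array, differed in this comparison too, and its part was not tested.

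For the knockout against GS, 3 of 10 members were 2-fold apart, Smarca2 and Arid1a lower and Smarcd1 higher, where 16.7% of 11623 genes were apart, 9.77% higher and 6.93% lower. Over member probe sets 6 of 19 were, against 16.8% of all probe sets. The members' median log2 difference was 0.06, against 0.07 for all genes. With arrays centred on their medians all genes split into 838 higher and 1072 lower in place of 1135 higher and 805 lower, and 2 members, Smarca2 and Arid1a, stayed 2-fold apart.

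With the knockout array as the reference, 4 members were 2-fold apart for mGS: Smarce1 and Arid1a were higher and Smarcd2 and Smarcd3 lower. The share of all genes was 39%, with 17.3% higher and 21.7% lower. For ES the same 4 genes and Smarca4, lower by just over 2-fold, were, where 40.3% of all genes were, 18.8% being higher and 21.5% lower. Smarca4 was 1.99-fold lower for mGS, so that it counts for one and not the other by a narrow margin, and its second probe set lay at 0.20 for ES and 0.07 for mGS on the log2 scale. For Smarcd2, Smarcd3, Smarce1 and Arid1a the main probe set differed more from the knockout array than from the GS array. On a second Smarcd2 probe set the log2 difference against the knockout was -0.53 for mGS and -0.63 for ES. The dim Smarcd2 probe set had the opposite sign, at 1.14 or more for mGS and 0.99 or more for ES. Smarce1 was under 2-fold on its second probe set, at 0.73 for mGS and 0.52 for ES. Arid1a passed 2-fold on both of its probe sets.

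**Figure D2:**
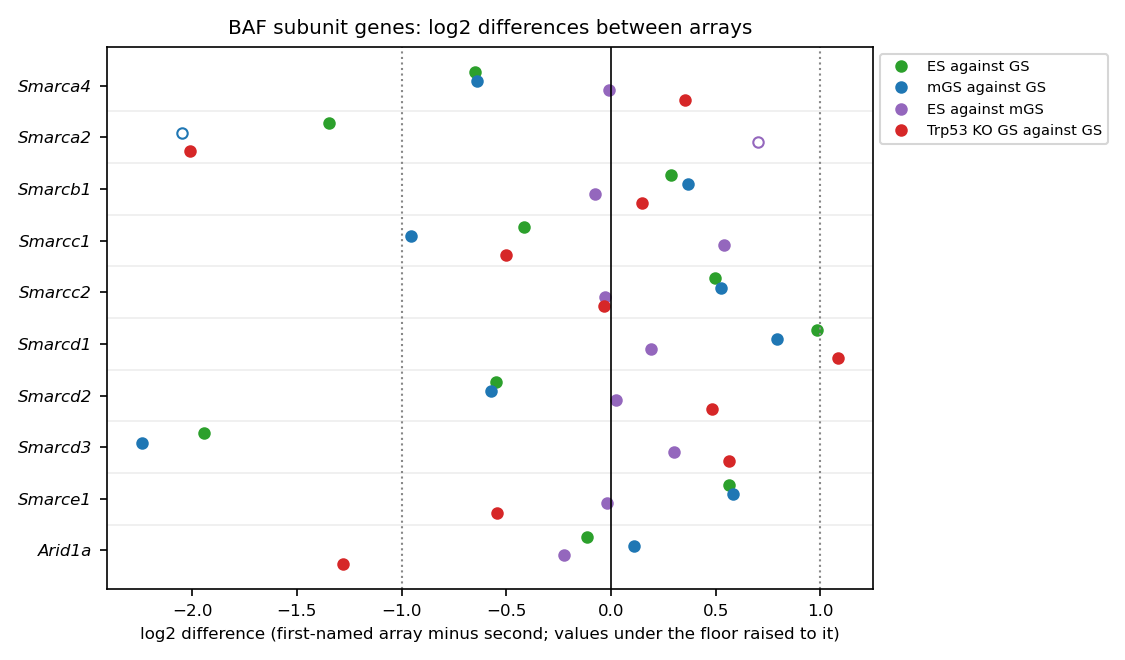
Log2 differences of the 10 genes on their main probe sets between pairs of arrays, first-named array minus second, with dotted lines at 2-fold; open circles are differences against a value raised to the floor, which are bounds. Smarca2 lies past 2-fold in all 3 comparisons with GS, Smarcd3 in those of ES and mGS, Arid1a and Smarcd1 in that of the knockout, and no ES against mGS value does.

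Levels of different probe sets cannot be set against each other, but their differences between the same 2 arrays can. The balance of a pair of paralogues is the log2 difference of the first gene minus that of the second, so a positive value is a shift toward the first. For mGS against GS all 5 member pairs shifted by at least 1, where 50.2% of all pairs of genes lay as far apart. That count was 3 with the floor at the 60th percentile and 1 with the probe sets of a gene averaged, where the pairs with Smarcd1 gave no value. For ES against GS 3 of 5 did, against 52.7%, for the knockout against GS 1 of 5, against 32.2%, and for ES against mGS none, against 25.3%. Set against the knockout array, 3 of 5 did for mGS, against 56.2%, and 3 of 5 for ES, against 57.3%. Signals of Smarca2 or Smarcd3 near the floor on the mGS array enter 3 of the 5 pairs. The 5 pairs share genes, so they are not independent.

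Within the BAF60 subunits the balance shifted toward Smarcd1 and away from Smarcd3 on both arrays in ES medium. Against the knockout array Smarcd1 itself was not higher, with log2 differences of -0.10 for ES and -0.29 for mGS. The shift against that array lay in Smarcd3, at -2.51 for ES and -2.81 for mGS. The balance of Smarcd1 against Smarcd3 was 2.93 for ES against GS and 3.03, or 8.18-fold, for mGS against GS. With the knockout array as the reference it was 2.41 for ES and 2.51 for mGS, and it was -0.11 for ES against mGS. That for the knockout against GS was 0.52. The balance of Smarcd2 against Smarcd3 moved the same way, 1.39 for ES and 1.67 for mGS against GS. That of Smarcd1 against Smarcd2 was 1.53 for ES and 1.36 for mGS against GS, with 1.29 to 1.53 and 0.94 to 1.36 over all combinations of probe sets. Against the knockout array the last balance was 0.93 for ES and 0.76 for mGS. With the dim Smarcd2 probe set it turned negative, to -1.09 or less and -1.44 or less. These are upper limits, since that probe set was under the floor on the knockout array.

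For ES the ATPase balance depended on which germline culture was the reference. Smarca4 against Smarca2 was 0.70 for ES against GS, at least 1.41 for mGS against GS and 2.36 for the knockout against GS. Over all combinations of probe sets it stayed above 0, with lowest values of at least 0.45, 0.32 and 0.25 in that order. These are lower limits, since the second Smarca2 probe set was under the floor on the ES, mGS and knockout arrays. The value for mGS against GS passed 2-fold under 6 of 9 alternatives, and was 0.87 with averaged probe sets and 0.52 with the floor at the 60th percentile. With the knockout array as the reference the balance was -1.66 for ES, the opposite sign, and -0.46 on the second Smarca4 probe set. For mGS it was -0.95 or more, a lower limit since Smarca2 was under the floor on the mGS array, and 0.11 or more on the second Smarca4 probe set, so that its sign was not settled.

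The scaffold balance of Smarcc1 against Smarcc2 shifted toward Smarcc2 on the mGS array, by -1.48 against GS, with -1.48 to -0.97 over single probe sets, and by -1.01 against the knockout. With averaged probe sets the value against GS was -0.73 and under 2-fold. It was -0.91 for ES against GS, with -0.91 to -0.34 over probe sets, and 0.57 for ES against mGS. For the knockout against GS it was -0.47, and its sign changed with the probe set.

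**Figure D3:**
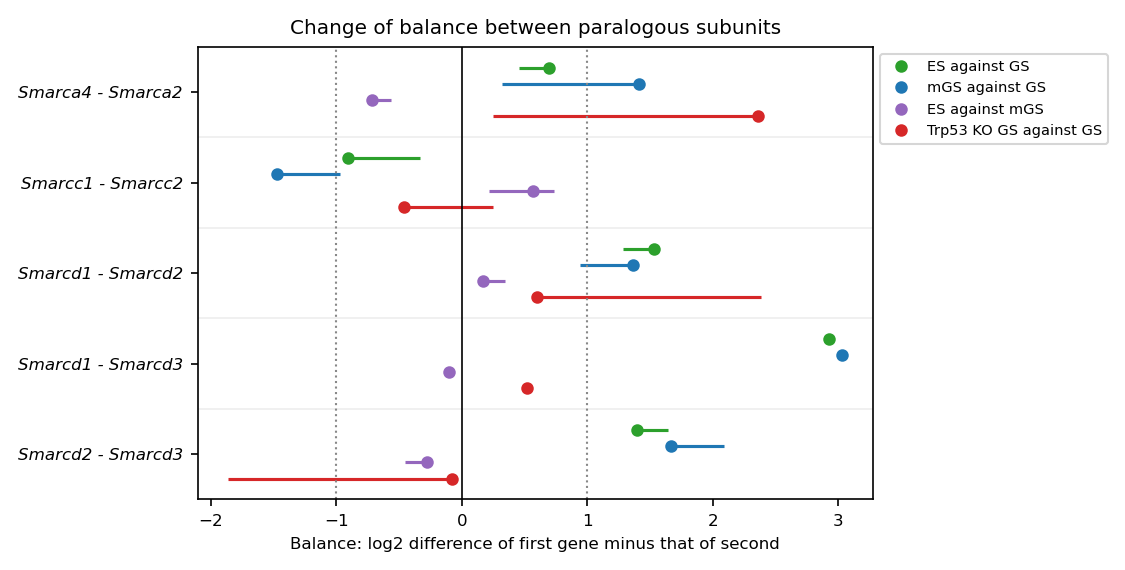
Change of balance between paralogous subunits: log2 difference of the first gene minus that of the second, by pair of genes and comparison. Points are main probe sets and dotted lines mark 2-fold. Bars are the range over all combinations of probe sets above the floor on at least 1 of the 2 arrays, so some ends are bounds. The Smarcd1 against Smarcd3 points for ES and mGS against GS lie near 3, and those of ES against mGS lie within 1 of 0 for all 5 pairs.

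A further 20 genes of BAF complexes and their PBAF and ncBAF relatives were read for comparison. The main probe sets of Actl6b, Dpf3 and Bcl11b were under the floor on all arrays, so these genes are not in the counts; Actl6b and Dpf3 are known as neural or muscle subunits. Another Bcl11b probe set read 146 on the ES and 149 on the mGS array and was under the floor on the knockout and GS arrays. Of 17 genes compared for mGS against GS, 1 was 2-fold higher, Bicral, and 1 lower, Dpf1, where 31.8% of all genes were 2-fold apart. Bcl7c was not counted, since its main probe set lay at 0.19 on the log2 scale. Of its 4 probe sets 3 were at least 2-fold lower for mGS, so its direction was not settled. Of 17 for ES against GS, 1 was higher, Actl6a, and 2 lower, Dpf1 and Ss18l1, against 34.6% of all genes. None was 2-fold apart for ES against mGS, against 12%, and of 16 for the knockout against GS 2 were lower, Arid2 and Dpf1, against 16.7%.

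Bicral, a subunit of the ncBAF complex, read 973 on the ES array, 1666 on the mGS array, 733 on the knockout array and 619 on the GS array. It was 2.69-fold higher for mGS against GS, and at least 2-fold higher on all 3 of its probe sets above the floor. Dpf1, a neural paralogue of Dpf2, read 480.4 on the ES array, 477 on the mGS array and 682 on the knockout array, against 1755 on the GS array. Its second probe set, near the floor, was lowest on the GS array, so the gene's direction was not settled.

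Arid2, the PBAF counterpart of Arid1a, read 3116 on the ES array, 3072 on the mGS array, 886 on the knockout array and 4058 on the GS array. It was 4.58-fold lower for the knockout against GS, and lower on all 4 of its probe sets, with log2 differences from -2.20 to -0.45. Arid1b, the paralogue of Arid1a, had 1 probe set, which read 427 on the ES array, 383 on the mGS array, 317 on the knockout array and 421 on the GS array. The balance of Arid1a against Arid1b was -0.87 for the knockout against GS and between -0.13 and 0.24 for ES and mGS against GS.

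Actl6a, an actin-related subunit, read 5780.1 on the ES array, 4628 on the mGS array, 2523 on the knockout array and 2662 on the GS array. It was 2.17-fold higher for ES against GS and 1.74-fold higher for mGS against GS, although 1 of its 3 probe sets lay at -0.85 and -0.01 on the log2 scale in these comparisons. The balance of Ss18 against Ss18l1, paralogues of which the first is held by dividing cells and the second by neurons, was 1.88 for ES and 1.04 for mGS against GS and -0.80 for the knockout against GS. Over other Ss18 probe sets it was as low as 0.33 for ES and 0.55 for mGS, under 2-fold.

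Among 16 genes of other remodelling ATPases, 4 were 2-fold higher for mGS against GS (Chd9, Chd1, Smarcad1 and Ino80) and 2 lower (Hells and Ep400), where 31.8% of all genes were 2-fold apart. For ES against GS 2 were higher (Chd9 and Chd1) and 3 lower (Ep400, Chd6 and Hells), against 34.6%. For the knockout against GS 3 were higher (Chd3, Chd9 and Srcap) and none lower, against 16.7%, and for ES against mGS 1 was higher, Chd3, against 12%. Chd4 narrowly missed the count for the knockout against GS, being 1.99-fold lower on its main probe set. It was lower on all 3 of its probe sets, with log2 differences from -2.09 to -0.995, and passed 2-fold on 2 of them. Probe sets of Hells conflicted, with 1 at 0.76 for ES and 0.52 for mGS against GS on the log2 scale. Those of Srcap did too, with 1 at -1.68 for the knockout against GS, the knockout signal being raised to the floor. Chd1, which is needed for open chromatin in mouse ES cells, read 1329 on the ES array and 1517 on the mGS array, 485 on the knockout array and 410.2 on the GS array. It was 3.70-fold higher for mGS against GS, on 3 of 4 probe sets by 2-fold or more. Chd9 was under the floor on the GS array, and against it at least 16.6-fold higher for ES and at least 12.8-fold higher for mGS. Ep400 was 2.39-fold lower for mGS against GS and lower on all 4 of its probe sets above the floor. Smarca5, the ISWI ATPase gene, was not 2-fold apart on its main probe set, with log2 differences against GS of -0.85 for ES, -0.60 for mGS and 0.35 for the knockout. It was lower on all 4 of its probe sets for ES and mGS against GS, by 2-fold or more on 2 for ES and 1 for mGS. For the knockout against GS 2 of its probe sets were higher and 2 lower, so that no direction was settled. Atrx was under 2-fold on its main probe set too, at 0.91 for ES and 0.67 for mGS against GS. It was higher on all 7 of its probe sets in both comparisons, by 2-fold or more on 4 for ES and 5 for mGS.

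**Figure D4:**
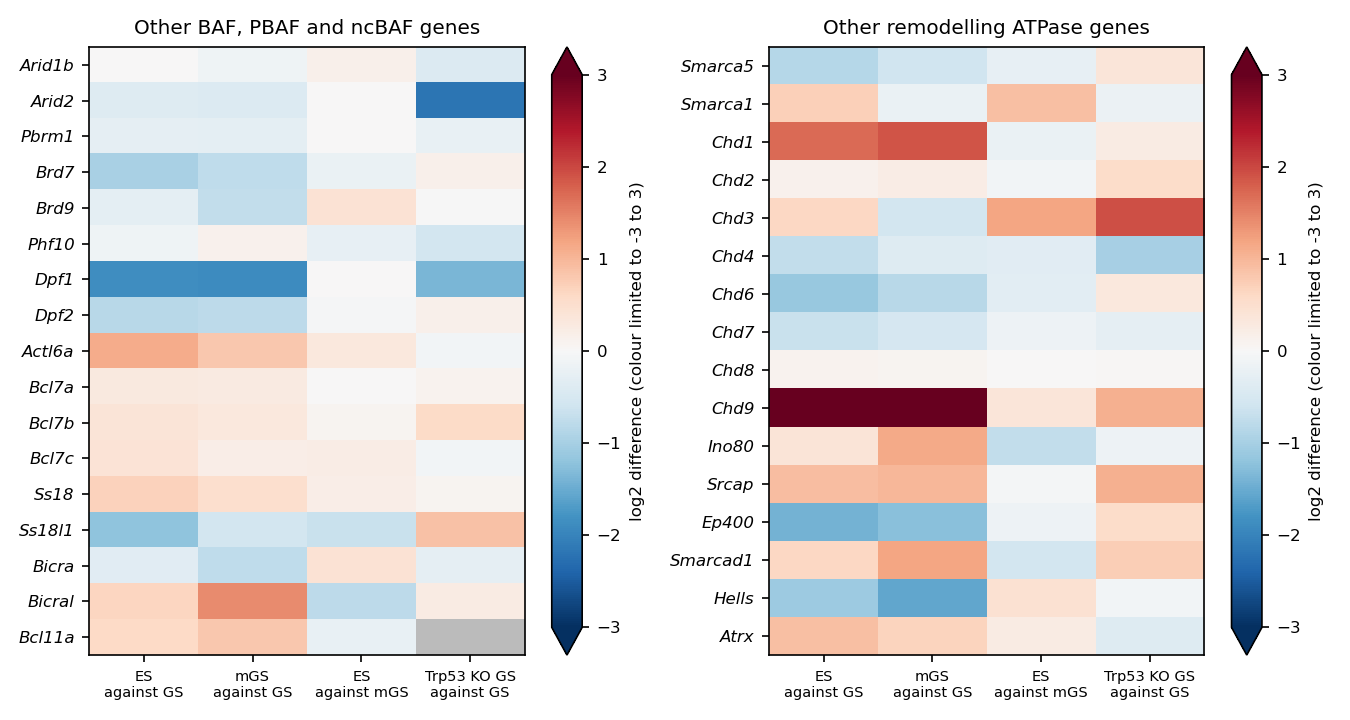
Log2 differences on the main probe sets of the other BAF, PBAF and ncBAF genes (left) and of other remodelling ATPase genes (right), first-named array minus second; red is higher and blue lower in the first-named array, colours end at 3, and grey marks a gene under the floor on both arrays. Arid2 is lowest for the knockout against GS at -2.20, and Chd9 highest for ES against GS at 4.05.

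For each of the 7 members that spanned 2-fold, the genes with the most similar profile were those at the smallest Euclidean distance between log2 signals centred on their own mean, among 12896 other genes. The profile has 4 points, 1 per array, so many genes lie close by. Nearest to Smarcd3 were Slc39a6, Hsdl2 and Snx25, at 0.11, 0.14 and 0.18. Nearest to Arid1a were the kinetochore genes Kntc1 and Cenpk and the splicing gene Rbm25, at 0.04, 0.08 and 0.10. Nearest to Smarca2 were the ERK phosphatase gene Dusp7, the growth factor gene Fgf9 and Sez6, at 0.24, 0.26 and 0.30. Fgf9 was under the floor on the mGS and knockout arrays, and Smarca2 itself on the mGS array. Values raised to the floor therefore enter these distances. The genes nearest to Smarcd1 were Trmt44, Park7 and Rhebl1, and those nearest to Smarce1 were Zfp553, Lin7c and Pcyt1a, all within 0.072. For Smarca4 and Smarcd2, 2 and 3 of the 3 nearest genes were under the floor on the ES and mGS arrays and are given as a count only.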

How the data were processed

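Expression of 4 cultures was measured on Affymetrix arrays from biotin-labelled cRNA, per the labels' protocols. The authors deposited 1 linear intensity per probe set and array; which software combined the probes was not stated in these sources. Each deposited array has a trimmed mean intensity of 500 (2% left out at either end). After removal of 64 control probe sets, log2 values of 45037 were quantile normalized over the 4 arrays, which hides any change in total RNA. Gene symbols came from the platform annotation: 34945 had 1 symbol, 932 several (left out), and 9160 were not listed. Of those with 1 symbol, 34741 were updated by gene identifier with a RefSeq gene table of GRCm38.p6. A gene took its probe set with the highest mean. The members, lists and alternatives were chosen with earlier results of these data known. Named genes were all members, list genes at least 2-fold apart (up to 6 by size) and listed paralogues, and the 3 nearest profiles. Some list genes that passed 2-fold on other probe sets alone were also named. Steps were tested on simulated data. Python 3.11.15 was used with matplotlib 3.10.9, scipy 1.17.1, pandas 2.3.3 and numpy 2.4.6.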

Additional observations from a re-analysis of the deposited data

How the results depend on the processing

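Values were recomputed on the deposited scale, after median centring, with probe sets of a gene averaged, without those ending in _x_at or _s_at, with a floor at the 60th or the 30th percentile or with none, with 32 added before the log, and with the knockout array in place of GS. For single values with no replicates, the SD between probe sets served as the yardstick: of 568 recomputed values, 537 moved by less than it and 29 by more. The first number is no measure of stability, since 270 of the values equal the main ones, as where a setting drops no main probe set or moves a floor that the gene does not reach. Another 2 called values changed sign, both with the knockout array in place of GS: Smarca2 for ES, to 0.66, and the balance of Smarca4 against Smarca2 for mGS, to -0.95, a lower limit. In that setting 4 members were 2-fold apart for mGS and 5 for ES, in place of 2 each, and 3 paralogue pairs for mGS in place of 5; the pair counts there were added after seeing the data. With averaged probe sets, 1 member was 2-fold apart for ES against mGS in place of 0, and 1 pair for mGS against GS and 1 for ES against GS, in place of 5 and 3; Smarcd1 then fell under the floor, so its pairs gave no value, while for mGS against GS Smarca4 against Smarca2 (0.87) and Smarcc1 against Smarcc2 (-0.73) fell under 2-fold. With the floor at the 60th percentile 3 pairs shifted for mGS against GS. Smarcd3 stayed at least 2-fold lower under every alternative for mGS and ES against GS, from -2.81 to -1.54, and Arid1a for the knockout, from -1.42 to -1.19. Centring moved the median of all genes by -0.11 for ES against mGS and by -0.16 for the knockout against GS. No paired analysis was possible because each group has 1 array. Precision is limited by 1 array per culture. It is also limited by dim signals: Smarcd3 on the ES and mGS arrays, Smarca2 on all but the GS array, and Smarcc2 on every array.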
